A study of Mus musculus with 3 samples.

Results

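The cytosolic ribosomal protein genes encode the proteins of the ribosomes that translate messenger RNA in the cytosol. They were taken by symbol from the GENCODE M21 annotation of the mouse genome. Protein-coding genes whose symbol begins with Rpl or Rps and a digit were used, with Rpsa, Rplp0, Rplp1 and Rplp2, and without the Rps6k kinase genes and Rps19bp1. This gave 91 of 21951 protein-coding genes. Of these, 77 were the canonical genes of 1 ribosomal protein each, 31 of the small subunit, 43 of the large subunit and 3 of the stalk. A further 8 were paralogs with a gene name of their own (Rpl3l, Rpl7l1, Rpl10l, Rpl22l1, Rpl36al, Rpl39l, Rps27l and Rps27rt). The last 6 were copies annotated as protein coding under a pseudogene name (Rpl9-ps1, Rpl9-ps6, Rpl10-ps3, Rpl36-ps4, Rpl36a-ps1 and Rps12-ps3).

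The small subunit of the ribosome decodes messenger RNA, the large subunit joins amino acids, and the stalk of the large subunit recruits the translation factors. Ribosomal protein genes are short, are transcribed at a high rate in growing and dividing cells such as T cells, and are known for the many processed pseudogenes that their mRNAs left in mammalian genomes. H3K36me3, a methylation mark of histone H3, is laid down by Setd2 travelling with elongating RNA polymerase II, so that it marks the bodies of transcribed genes and grows towards their end.

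H3K36me3 was profiled by chromatin immunoprecipitation sequencing (ChIP-seq) in splenic and intestinal Treg cells. They were taken from C57BL/6 mice labelled Foxp3-YFP, that is, Foxp3 Cre-YFP mice, by flow cytometry for CD3, CD4 and YFP. All libraries shared this genotype, which expresses Cre and YFP from the Foxp3 locus, with no floxed allele named. No agent was given, and the labels call the cells steady state. Cells were pooled from 7 female and 7 male mice, the study's mice being 6 to 12 weeks old unless stated otherwise, and 1 library was made per tissue from an equal amount of chromatin. The remaining library, input chromatin of splenic Treg cells, was not analysed here. There was thus 1 library per tissue and no replicate check, and every difference given is one between 2 libraries.

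The depth inferred from the deposited values was 2.96e+07 mapped reads in the spleen library and 3.81e+07 in the large intestine library. The merged peaks numbered 120910, with a median length of 456 bp. All 7 Treg and T cell markers examined had a peak, with 12.7 and 15.2 RPKM per gene length in spleen and large intestine at Foxp3. Of other cell types, 2 of 5 B cell genes had a peak (Cd79a and Pax5, with Ms4a1 and Ebf1 among those at 0), as did 2 of 5 myeloid genes (Csf1r and Cd68, with Lyz2, Itgam and Spi1 at 0) and 2 of 6 genes of intestinal epithelium (Epcam and Vil1, with Krt8, Krt20, Cdh1 and Cdx2 at 0). The RPKM over those lists summed to 51.3 in spleen and 39.7 in large intestine for B cells, 29.7 and 31.3 for myeloid cells, and 29.9 and 59.8 for epithelium. Per gene length, the epithelial adhesion gene Epcam had 0.68 and 1.29 RPKM, and Cd68, a lysosomal protein of macrophages, had 13.8 and 13.8 RPKM. Their part in the values below was not tested. In bulk chromatin, less mark per cell and fewer cells with the mark cannot be told apart.

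A pair of measures was used, both in RPKM, the read coverage per kilobase scaled to sequencing depth. The level of a gene was its signal per gene length: the value of each peak overlapping the gene body, weighted by the bases of the peak inside the body and divided by the body's length, a base outside peaks counting as 0. Overlapping peaks were taken after it was seen that the long peak of some short genes has its midpoint past the gene. For the ratio of a gene, the values of the peaks with their midpoint in the body were summed, and large intestine was set over spleen on the log2 scale. The large intestine value was first divided by 1.03, so that both libraries had the same total over all peaks. A pseudocount of 0.5 RPKM was added, and genes needed 20 RPKM over both libraries. Approximate 95% counting intervals take each read to cover 200 bp and cover counting error only.

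H3K36me3 lay on every canonical ribosomal protein gene. A peak overlapped the body of 77 of 77 canonical genes, compared with 46.7% of all protein-coding genes (10244 of 21951) and 30.3% of those under 10 kb. The shares in related sets were 75 of 78 mitochondrial ribosomal protein genes (symbols beginning Mrpl or Mrps), 61 of 68 translation factor genes (Eif and Eef) and 47 of 49 genes of ribosome biogenesis. Peaks overlapped 4 of the 8 paralogs (Rpl7l1, Rpl22l1, Rpl36al and Rps27l) and 0 of the 6 pseudogene-named copies, so that 81 of the 91 members had a peak. The 10 members without one were Rpl3l, Rpl10l, Rpl39l and Rps27rt and the 6 copies.

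The level lay above that of most marked genes. The median level of the canonical genes was 13.2 (spleen) and 12.9 RPKM (large intestine), and their median percentile among all protein-coding genes was 92.7. Among genes with a peak, the medians were 5.81 and 5.85 RPKM for mitochondrial ribosomal protein genes, 10.4 and 10.7 RPKM for translation factor genes, 10.9 and 10.3 RPKM for biogenesis genes, 7.08 and 7.61 RPKM for genes under 10 kb, and 4.52 and 4.79 RPKM for all genes. Small subunit genes (13.7 and 12.8 RPKM) and large subunit genes (13 and 13 RPKM) had like medians. Of the 77 canonical genes, 64 were above the median of the marked genes under 10 kb, and 55 had at least 10 RPKM on average. The level is given per length because a long gene collects more peaks, and these comparisons are descriptions of 2 libraries.

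**Figure D1:**
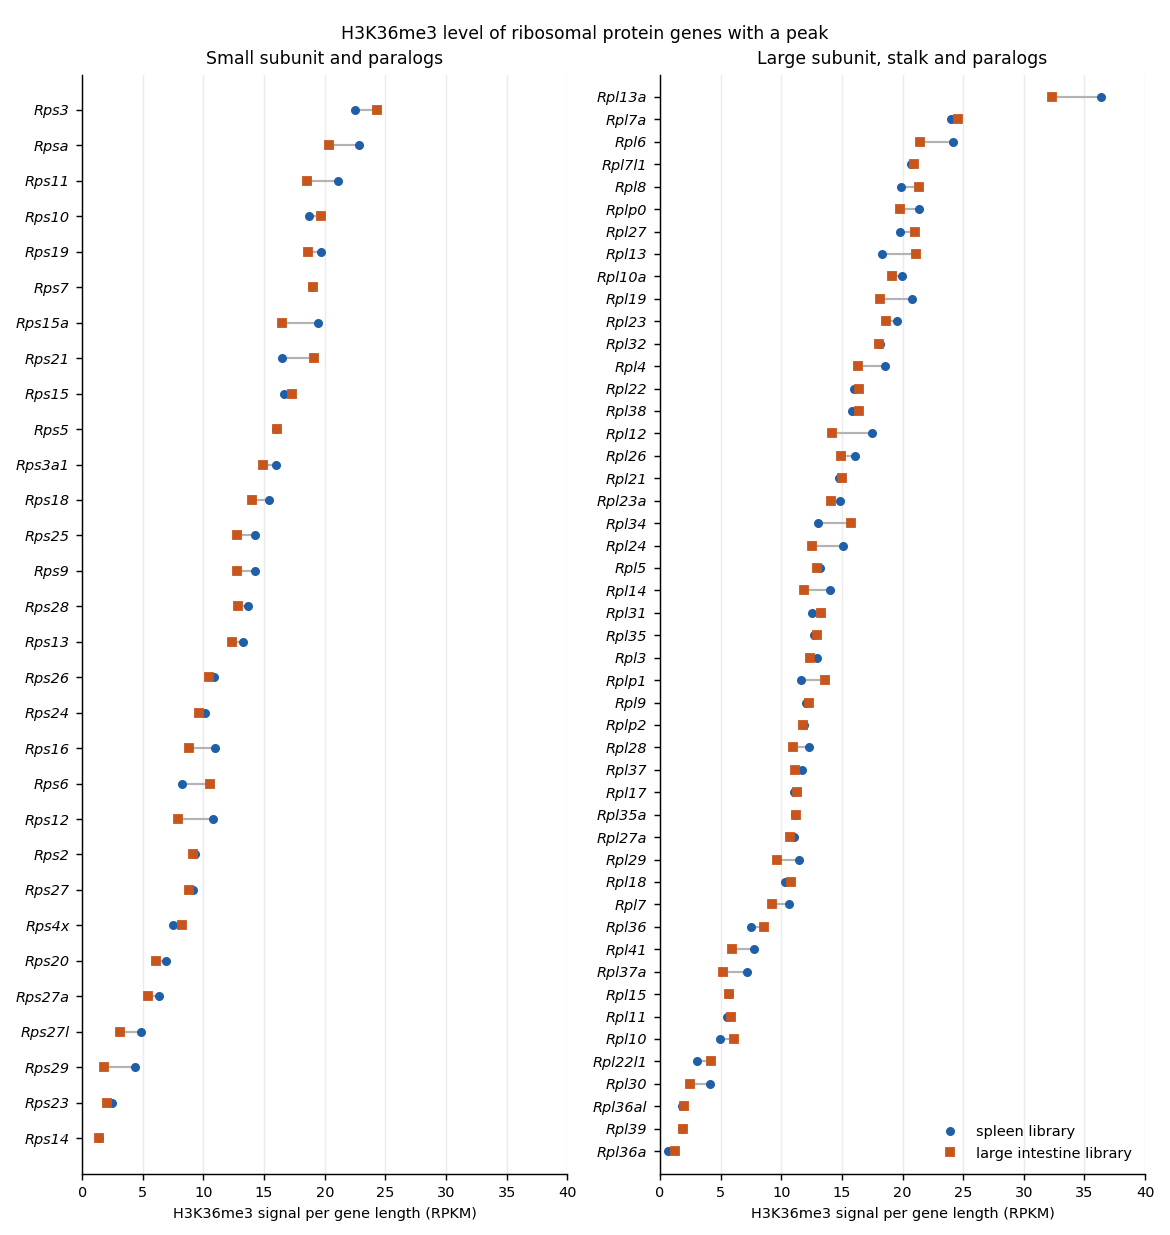
H3K36me3 signal per gene length (RPKM, x axis) of 78 ribosomal protein genes with a peak, ordered by the mean of both libraries, with the spleen library as blue circles and the large intestine library as orange squares. Rpl13a stands at the top with 36.4 and 32.3 RPKM, Rpl36a at the bottom with 0.67 and 1.26 RPKM, and in most genes both libraries lie close together; there is 1 library per tissue, so no error bar is drawn.

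The highest level was at Rpl13a (chr7:45125558-45128761, minus strand), a large subunit protein also known for a role in silencing interferon-induced mRNAs. It had 36.4 (spleen) and 32.3 RPKM (large intestine), and ranked 44 among all protein-coding genes. The coding gene Gm45713 overlaps it, and the signal of the overlap cannot be told apart between them. Among the next large subunit genes were Rpl7a (24.0 and 24.5 RPKM) and Rpl6 (24.2 and 21.4 RPKM).

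In the small subunit, Rps3, which lies at the entry channel for mRNA and also takes part in DNA repair, had 22.5 (spleen) and 24.3 RPKM (large intestine). Rpsa, also known as a laminin receptor, had 22.8 and 20.4 RPKM. Among the members of known function beyond the ribosome or in disease, the level of Rps19, the gene most often mutated in Diamond-Blackfan anaemia, was 19.7 and 18.6 RPKM. That of Rps6, the target of the S6 kinases below mTOR, was 8.26 and 10.5 RPKM. Rps26, also mutated in that anaemia, had 10.9 and 10.5 RPKM, and Rps27a, which encodes a ribosomal protein joined to ubiquitin, had 6.30 and 5.41 RPKM.

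Rpl5 and Rpl11, which form a particle with the smallest ribosomal RNA and bind Mdm2 when ribosome assembly fails, differed in level per annotated length. Rpl5 had 13.2 (spleen) and 13 RPKM (large intestine). Rpl11 had 5.49 and 5.88 RPKM, over an annotated body of 25164 bp that is much longer than its principal transcript. The long peaks had the opposite order, with 26.3 and 27.9 RPKM at Rpl11 (4731 bp) beside 16.7 and 17.3 RPKM at Rpl5 (5439 bp). Rpl22, whose loss impairs T cell development, had 16.0 and 16.4 RPKM, Rpl23, another Mdm2 binder, 19.5 and 18.6 RPKM, and Rpl38, known for the translation of Hox mRNAs, 15.8 and 16.4 RPKM. The 3 stalk genes were all marked, with 21.3 and 19.8 RPKM at Rplp0, the base of the stalk, 11.6 and 13.6 RPKM at Rplp1 and 11.9 and 11.8 RPKM at Rplp2.

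The 4 canonical genes on chromosome X were among the lower ones. Rps4x had 7.46 and 8.24 RPKM in spleen and large intestine, Rpl10, at the core of the large subunit, had 4.98 and 6.14 RPKM, Rpl39 had 1.84 and 1.89 RPKM and Rpl36a had 0.67 and 1.26 RPKM. The cells came from mice of both sexes, and the part of X chromosome dosage in these levels was not tested. The other canonical genes under 5 RPKM in both libraries were Rps14 (1.39 and 1.40 RPKM), Rps23 (2.45 and 2.07 RPKM), Rps29 (4.35 and 1.83 RPKM) and Rpl30 (4.10 and 2.46 RPKM). Rps14, the gene whose loss accounts for the anaemia of the 5q deletion syndrome, is annotated over 31449 bp, and its long peak of 3710 bp, with 19.8 (spleen) and 19.3 RPKM (large intestine), lay at its far end. Ndst1 overlaps Rps14.

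In most canonical genes the mark held 1 long block over the gene and beyond its end, and a median of 2 peaks overlapped a gene. The longest peak of a canonical gene had a median length of 3676 bp, compared with 2304 bp in marked genes under 10 kb and 2179 bp in mitochondrial ribosomal protein genes. It covered over 50% of the gene body in 55 of 77 genes (71.4%), compared with 29.2% of marked genes under 10 kb and 12% of mitochondrial ribosomal protein genes. It began a median of 960 bp after the start of the principal transcript and ended a median of 1130 bp past its end. In 66 of 77 genes (85.7%) the peak ran past the end of the transcript, which it did in 47.4% of marked genes under 10 kb. Such shares can depend on gene length. Over all genes of each set, marked or not, its median was 3289 bp in canonical genes, 4734 bp in genes under 10 kb and 7900 bp in mitochondrial ribosomal protein genes.

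**Figure D2:**
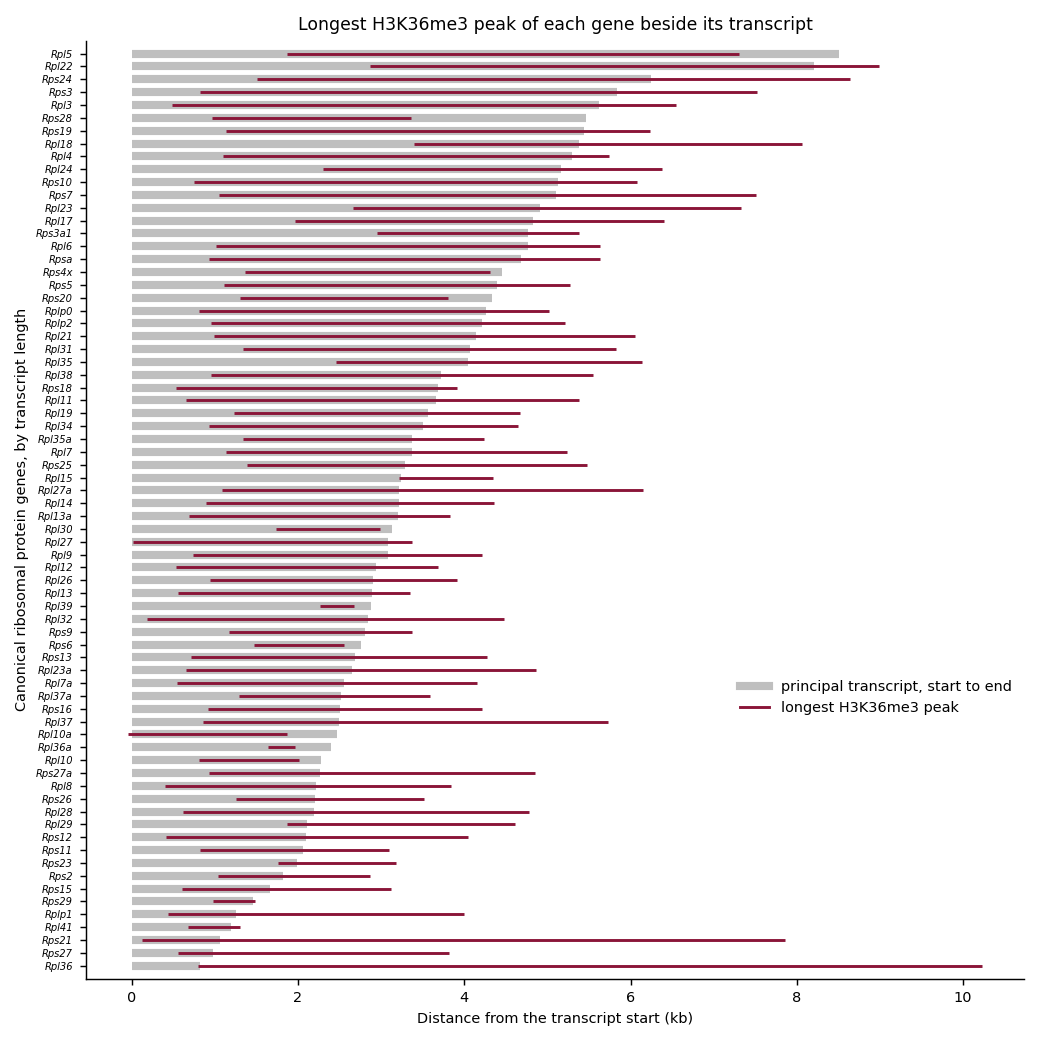
Longest H3K36me3 peak (dark red line) of 72 canonical ribosomal protein genes beside the principal transcript (grey bar), drawn to scale from the transcript start (x axis, kb) and ordered by transcript length. Rps14 and Rps15a, with transcripts over 10 kb, are left out. Most peaks begin inside the transcript and end past it; those of Rpl36 and Rps21 run on into Lonp1 and Cables2.

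The stretch past the end was not always the gene's own. In 19 of the 66 genes it reached another protein-coding gene. The peak of Rpl36 ran 9395 bp past the end, over Lonp1, and that of Rps21 ran 6792 bp, over Cables2. In the other 47 genes it reached no coding gene, its median length was 1130 bp, and the longest was 3520 bp. Such peaks have their midpoint outside short genes. Rpl28, Rpl37, Rplp1, Rps12, Rps16, Rps21, Rps27 and Rps27a therefore had an overlapping peak but none with its midpoint in the body, and they have a level but no ratio of summed peaks. In some other members the longest peak was left out in this way, and the summed ratio rests on a shorter one. Examples are Rpl27a (215 bp kept, 5059 bp left out), Rpl18 (333 and 4665 bp), Rps15 (275 and 2512 bp) and Rpl36 (479 and 9419 bp).

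Averaged along the principal transcripts of the 77 canonical genes, cut into 10 equal parts, the spleen and large intestine signal was 3.27 and 3.76 RPKM in part 1 and 11.6 and 11.2 RPKM in part 3. It was highest in part 8, with 19.3 and 18.5 RPKM. It was 18.9 and 18.0 RPKM in part 10 and still 17.8 and 17.1 RPKM in the first kb past the end, and it was 10.2 and 10.3 RPKM in the second kb. The 1 kb before the start held 0.46 and 0.49 RPKM. Mitochondrial ribosomal protein genes had their highest values in the same part, with 10.5 and 10.9 RPKM, and 6.63 and 7.15 RPKM in the first kb past the end. The marked genes under 10 kb had 12.8 and 13.9 RPKM in that part and 9.82 and 10.7 RPKM past the end.

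**Figure D3:**
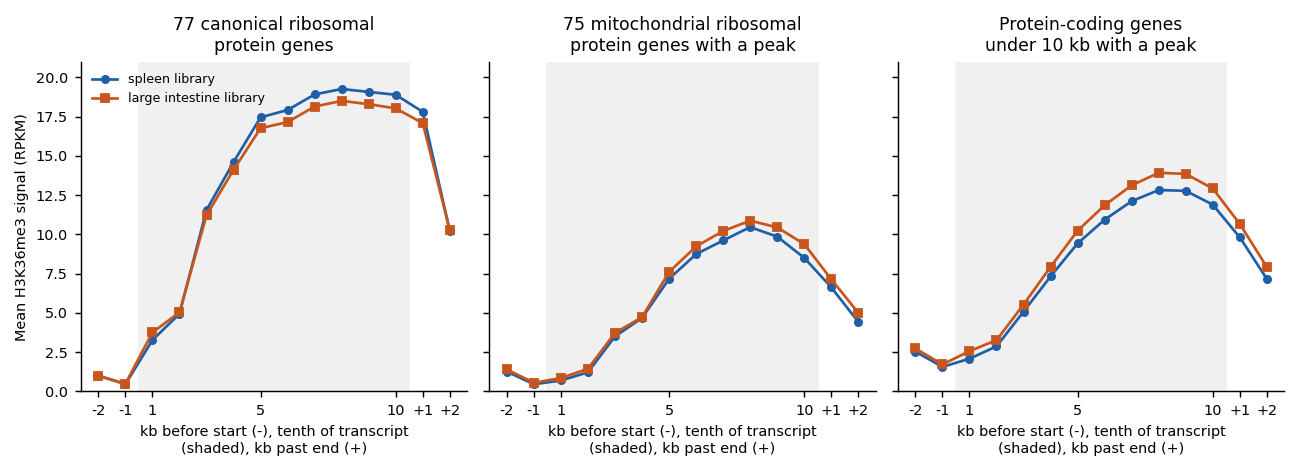
Mean H3K36me3 signal (RPKM, y axis) in 2 kb before the start, in 10 equal parts of the principal transcript (shaded) and in 2 kb past its end, for canonical ribosomal protein genes, mitochondrial ribosomal protein genes with a peak, and all protein-coding genes under 10 kb with a peak. Blue circles are the spleen library and orange squares the large intestine library. The ribosomal protein genes reach 19.3 and 18.5 RPKM, with spleen slightly above large intestine from part 3 to the first kb past the end, while in both other sets large intestine is the higher in the last parts.

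Between the tissues the ribosomal protein genes differed little. Of the 91 members, 73 had a peak with its midpoint in the body and 65 had at least 20 RPKM (62 canonical genes and 3 paralogs). Their log2 ratio, large intestine over spleen, had a median of -0.04 (binomial 95% interval over genes -0.15 to 0.04), and the middle 50% lay between -0.21 and 0.15. Such an interval covers the spread between genes and not that between libraries. Without scaling to the library totals the median was 0.00, and 33 of the 65 members (50.8%) were higher in large intestine, beside 56.6% of all genes. In all 9456 protein-coding genes with enough signal the median was 0.00 and the middle 50% lay between -0.20 and 0.23. Of the 65 members, 29 (44.6%) were higher in large intestine, compared with 50.7% of all genes.

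Few members passed a fold limit. Past 1.5-fold, 1 member was higher in large intestine and 1 in spleen (Rps27l), and the share of all genes was 9.02% and 5.57%. Past 2-fold it was 0 and 0 members, beside 3.23% and 1.81% of all genes. The counting interval lay above 0 in 1 member (Rpl34), beside 18.5% of all genes, and below 0 in 9 members, or 13.8% of 65, beside 15.9% of all genes. Rps27l, Rpl37a, Rps15a, Rpl12, Rpl14, Rpl6, Rpl4 and Rpsa were among these 9. Without scaling, 4 of the 9 remained (Rps27l, Rpl37a, Rps15a and Rpl12), and 12.6% of all genes were below 0. With a read taken as 75 bp the interval was above 0 in 4 members, beside 28.7% of all genes, and below 0 in 20, beside 26.8%.

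Among the canonical genes with the highest ratios was Rpl34, with 29.0 (spleen) and 43.0 RPKM (large intestine) over 3 peaks and a log2 ratio of 0.52 (0.00 to 1.03). Its long peak of 3722 bp had 16.6 and 19.0 RPKM, and the larger part of the difference came from peaks of 200 bp and 385 bp. The interval held 0 with the strongest peak only (0.15, -0.12 to 0.41), with peaks weighted by length, with the GC trend removed, with the median of ratios as scaling and per gene length (0.23, -0.03 to 0.49). Rps6 had 33.3 and 44.5 RPKM (0.37, -0.16 to 0.90), higher in large intestine in each of its 4 peaks. The highest 8 also held Rpl22l1 (0.52), Rpl27a (0.35), Rps20 (0.34), Rps13 (0.32) and Rpl21 (0.26), and the counting interval of each held 0. Of these, Rps20, Rps13, Rpl27a and Rpl21 had a ratio below 0 on the per-length scale given below. The summed ratio of Rpl27a rested on a peak of 215 bp alone.

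At the other end stood Rps27l, a paralog of Rps27 that p53 induces. Its 3 peaks summed to 32.7 (spleen) and 18.8 RPKM (large intestine), a log2 ratio of -0.83 (-1.50 to -0.16). The largest part of the difference came from a peak of 208 bp with 11.5 and 2.28 RPKM. Its peak at the start had 9.65 and 9.91 RPKM, and that over the end of the gene 11.6 and 6.61 RPKM. The long peak of Rpl37a had 14.6 (spleen) and 10.7 RPKM (large intestine) (-0.48, -0.87 to -0.09), and the 4 peaks of Rps15a summed to 67.8 and 52.9 RPKM (-0.40, -0.73 to -0.07).

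Rpl12, which lies at the foot of the stalk, had 21.1 (spleen) and 17.1 RPKM (large intestine) in its 1 peak of 3146 bp (-0.34, -0.61 to -0.06). Lrsam1 overlaps it. The ratios of the other members of the lowest 8 were -0.57 at Rpl41, -0.32 at Rps7, -0.31 at Rpl29 and -0.31 at Rpl35a, with intervals that held 0. That of Rpl35a rested on a peak of 493 bp with 9.40 and 3.15 RPKM, while its peak of 2904 bp had 18.1 and 19.7 RPKM. The sum over peaks thus gave short peaks the same weight as long ones.

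The length of the peaks separated the picture. Of the 139 peaks over canonical genes, 83 were 1 kb or longer (59.7%, beside 23.3% of all peaks), with medians of 19.8 (spleen) and 19.3 RPKM (large intestine). Of these long peaks 31.3% were higher in large intestine, beside 51.4% of all long peaks. Their median log2 ratio was -0.11 with an SD of 0.20 across peaks, and the SD was 0.39 over all long peaks. The 56 shorter peaks had a median ratio of 0.28 and an SD of 0.70, and 57.1% of them were higher in large intestine. Over all short peaks these values were -0.03, 0.88 and 48.3%.

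Among the short peaks, position and base composition moved together. The 25 short peaks within 500 bp of a transcript start had a median GC content of 66.3% and medians of 9.92 (spleen) and 12.5 RPKM (large intestine), and 17 of them (68.0%) were higher in large intestine. The 31 short peaks elsewhere had 48.6% GC, and 15 of them (48.4%) were higher in large intestine. The same held in all protein-coding genes, where 71.3% of 1051 short peaks near a start (67.6% GC) were higher in large intestine, beside 47.7% of those elsewhere. After the trend of the ratio with GC content was removed over all peaks, 16 of 64 members were higher in large intestine, beside 47.7% of all genes. The part of GC content in the ratios was not tested further.

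Weighting each overlapping peak by its bases inside the gene let nearly all members be compared. This measure was chosen after the values were seen. It is the log2 ratio of the level per length, computed after 0.1 RPKM was added to each library, for genes whose level reached 2 RPKM when both libraries were summed. Of 80 members, 21 (26.3%) were higher in large intestine, beside 54.3% of 8064 protein-coding genes. The median was -0.10 (-0.14 to -0.04) over the members, 0.02 over all genes, 0.06 over genes under 10 kb and 0.01 over mitochondrial ribosomal protein genes, whereas it was -0.07 over translation factor genes and -0.11 over biogenesis genes. Among genes with at least 10 RPKM on average, 14 of 56 members (25%) and 65.1% of all genes were higher in large intestine.

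The counting interval of this ratio was below 0 in 16 of 80 members, beside 17.9% of all genes, and above 0 in 0 members, beside 25.5% of all genes. Past 1.5-fold, 3 members were higher in spleen (Rps29, Rpl30 and Rps27l), beside 2.1% of all genes, and 0 members in large intestine, beside 4.99%. With the deposited values and no scaling, 33 of 80 members (41.3%) were higher in large intestine, beside 61.7% of all genes, and the median was -0.06 (-0.09 to 0.01), beside 0.07. The interval was then above 0 in 2 members (Rps21 and Rpl34), beside 31.5% of all genes, and below 0 in 9, beside 12.9%. The scaling thus moved every ratio by 0.05 on the log2 scale, beside a median of -0.10.

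**Figure D4:**
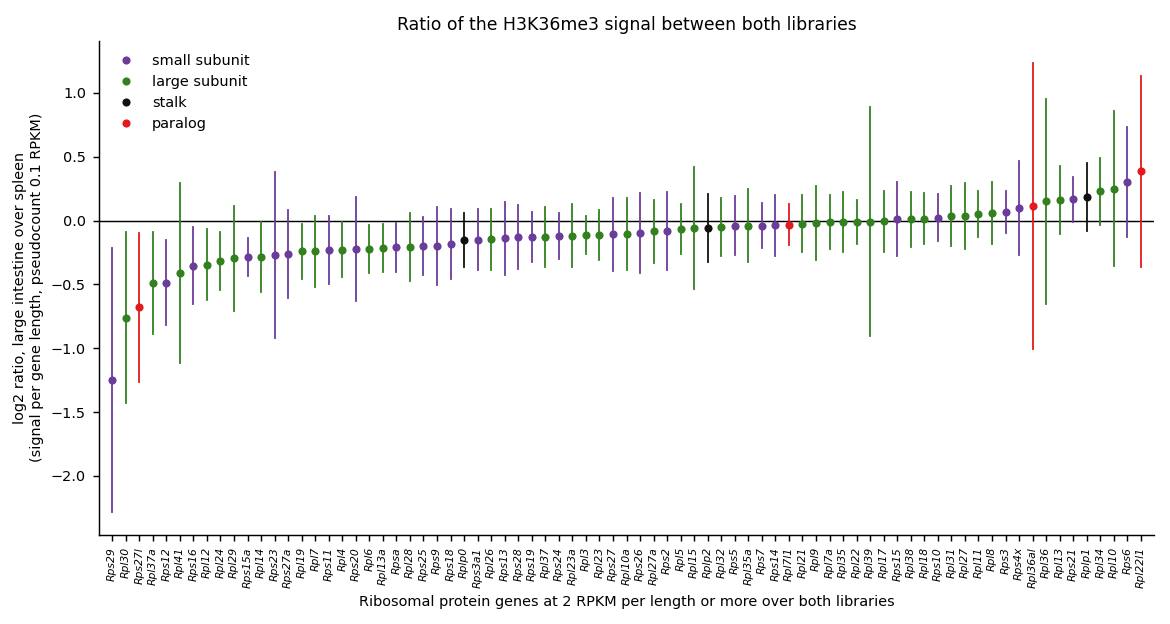
Log2 ratio of the signal per gene length, large intestine over spleen (y axis), of 77 ribosomal protein genes with at least 2 RPKM per length over both libraries, ordered by the ratio. Points are single values from 1 library per tissue and lines are approximate 95% counting intervals; colours mark small subunit, large subunit, stalk and paralogs. Of the 77 points 19 lie above 0, the intervals of 15 genes lie wholly below 0, and Rps29, Rpl30 and Rps27l stand at the low end.

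The 8 canonical genes without a ratio of summed peaks had a value on this scale. Each rests on a peak with its midpoint outside the gene, so the value also averages signal beyond the gene. The peaks of Rps21, Rps27, Rps27a and Rpl28 reached Cables2, Nup210l, Mtif2 and Ube2s. Rps12 had 10.8 (spleen) and 7.92 RPKM (large intestine) per length, with a log2 ratio of -0.49 (-0.82 to -0.15), and Rps16 had 10.9 and 8.80 RPKM (-0.35, -0.66 to -0.05). Rps21 (0.17), Rplp1 (0.18), Rps27 (-0.11), Rps27a (-0.26), Rpl28 (-0.20) and Rpl37 (-0.13) had intervals that held 0. The lowest ratio of all was that of Rps29, with 4.35 and 1.83 RPKM (-1.25, -2.28 to -0.21). It came from a single peak of 506 bp at the end of a gene of 1465 bp, with 13 (spleen) and 5.47 RPKM (large intestine). Rpl30 had 1 peak of 1246 bp with 10.3 and 6.18 RPKM (-0.76, -1.43 to -0.09). Both genes were under the limit of 20 RPKM of the summed ratio.

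For the members of known function, the per-length ratio was between -0.26 (Rps27a) and 0.30 (Rps6), leaving out Rpl36a, which is under the limit. It was -0.21 at Rpl13a (-0.40 to -0.03) and -0.21 at Rpsa (-0.40 to -0.02), and the intervals of the following genes held 0: Rplp0 (-0.15), Rps19 (-0.13), Rpl23 (-0.11), Rps26 (-0.10), Rpl5 (-0.07), Rplp2 (-0.06), Rps14 (-0.04), Rpl22 (-0.01), Rpl39 (-0.01), Rpl38 (0.01), Rpl11 (0.05), Rps4x (0.10), Rpl10 (0.25) and Rps6 (0.30). Of the genes with the highest levels, Rps3 (0.07) and Rpl7a (-0.01) likewise had intervals around 0, whereas Rpl6 (-0.22, -0.41 to -0.03) had an interval below 0. Without scaling the intervals of Rpl13a (-0.36 to 0.02), Rpsa (-0.36 to 0.03) and Rpl6 (-0.36 to 0.01) held 0.

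Of the 4 paralogs with a peak, Rpl7l1 and Rpl36al had a higher level than their canonical gene in both libraries and Rpl22l1 and Rps27l a lower one. Rpl7l1 had 20.7 (spleen) and 20.9 RPKM (large intestine) per length, beside 10.6 and 9.27 RPKM at Rpl7. Rpl22l1, which can take the place of Rpl22 in the ribosome, had 3.09 and 4.20 RPKM beside 16.0 and 16.4 RPKM at Rpl22. Rps27l had 4.83 and 3.08 RPKM beside 9.16 and 8.77 RPKM at Rps27. Rpl36al, which Gm49383 overlaps, had 1.78 and 1.99 RPKM, beside 0.67 and 1.26 RPKM at Rpl36a. Both of these rest on short peaks, of 200 bp and 422 bp at Rpl36al and of 332 bp at Rpl36a. Rpl10l and Rpl39l, known as testis forms, and Rpl3l, known from striated muscle, had no peak.

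Near-identical copies limit what a read can tell. In 75-base windows, the length of the reads, a median of 94.5% of the windows of a canonical gene body occurred at 1 place of the genome, but only 65.8% of its exon windows, beside 99.1% and 100% in mitochondrial ribosomal protein genes. Intron windows were unique at a median of 100%. In 26 canonical genes under 50% of the exon windows were unique, and in Rpl9, Rpl10a, Rpl23a, Rpl36a and Rps27 it was 0%. How reads matching several places were placed is not given in the sources used here. Taking only peaks with their midpoint in an intron, 51 members could be compared. Their median log2 ratio was -0.11, beside -0.02 over all genes, and 21 of them (41.2%) were higher in large intestine, beside 48% of all genes. Such peaks were kept whole, exons included, so this choice removes no exon reads from them and cannot decide the part of the copies.

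Rps27 and Rps27rt show the limit at the level of bases. The coding sequences of both genes, 252 bases without the stop codon, are identical, and that of Rps27l differs from them at 60 bases (76.2% identity). The exon below holds coding bases 116 to 226 of each gene, in capitals where Rps27l differs from Rps27. Sequences were read 5' to 3' from the reference genome (GRCm38), at chr3:90212934-90213044 (minus strand), chr9:114982482-114982592 (minus strand) and chr9:66947587-66947697 (plus strand).
Rps27: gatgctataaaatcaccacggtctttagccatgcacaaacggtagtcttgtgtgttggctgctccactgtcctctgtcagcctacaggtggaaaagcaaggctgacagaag
Rps27rt: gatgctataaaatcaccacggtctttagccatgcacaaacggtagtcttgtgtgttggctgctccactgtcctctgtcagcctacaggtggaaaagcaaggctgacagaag
Rps27l: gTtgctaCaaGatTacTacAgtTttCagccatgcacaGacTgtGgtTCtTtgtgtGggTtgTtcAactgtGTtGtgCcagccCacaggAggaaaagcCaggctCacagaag

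A read inside the first pair of sequences cannot be assigned to one or the other. Rps27rt has 1 exon and lies in Osbpl10, only 12.3% of its windows are unique, and it had no peak. Rps27 has introns, and had 9.16 and 8.77 RPKM per length. In the Rps27l exon 26 of the 111 bases differ from Rps27. Of the pseudogene-named copies, Rps12-ps3 (0%), Rpl10-ps3 (4.03%) and Rpl9-ps6 (23.4%) have few unique windows, whereas Rpl9-ps1 (98.8%) and Rpl36-ps4 (100%) could be told apart and still had no peak. Of 222 annotated pseudogenes named after ribosomal protein genes that lie outside coding genes, 0 had a peak with its midpoint inside, beside 81 of 10791 other pseudogenes (0.751%). Peaks listed here are those the authors called, so a weaker signal below their threshold is not seen.

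The canonical genes have other features, some of them not shared by all, that the choice by symbol did not use. They have a median length of 3289 bp and 5 exons in the principal transcript, and they lie on 19 chromosomes, 14 of them on chromosome 7. In 29 of them an intron holds an annotated small nucleolar RNA (snoRNA), a guide for the modification of ribosomal RNA. The share of such hosts among all protein-coding genes was not counted, so this number has no background. The 29 hosts had a median level of 14.8 (spleen) and 14.1 RPKM (large intestine), beside 12.6 and 12.8 RPKM in the 48 others. Their per-length ratio was above 0 in 4 of 29 genes, beside 15 of 47 others, with medians of -0.12 and -0.06. The ratio of summed peaks did not separate them. It was above 0 in 11 of 24 hosts (45.8%) and 17 of 38 others (44.7%), with medians of -0.03 and -0.03.

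The transcripts of ribosomal protein genes are known to begin with a run of pyrimidines, through which mTOR controls their translation. Promoter sequences of RefSeq (GRCm38.p6) were at hand for 57 of the 77 canonical genes and for the 8 paralogs. A run of 8 or more C or T that touched the 41 bases around the annotated start was found in 29 of the 57 (50.9%), beside 21% of 27025 promoters and 3 of the 8 paralogs. Such a run can lie before the start, outside the transcript. CCGGAAG, the core of an ETS or GABP site, was found on either strand in 23 (40.4%, beside 9.12%), CACGTG, an E-box, in 5 (8.77%, beside 7.24%), and TATAA in 15 (26.3%, beside 25.5%). A match is a description of the letters in this window of 300 bases. The sets compared are unlike in 2 ways. For members the start nearest to that of the principal transcript was used, and for the 27025 promoters the start listed at the top for each symbol. The 27025 are also not limited to the protein-coding genes used elsewhere. Genes with the run had a median level of 13 (spleen) and 12.8 RPKM (large intestine), and the 28 without it 15.6 and 13.5 RPKM.

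The 60 bases around the start, 30 on either side, are printed below for the member with the highest level (Rpl13a), the longest run among the 57 (Rpl7a), the mTOR pathway target Rps6, the lowest level among members with a peak (Rpl36a) and the 2 paralogs with the most extreme ratios. The longest run of C or T that touches the 41 bases around the start is in capitals. The windows are chr7:45128716-45128775 (minus strand), chr2:26910777-26910836 (plus), chr4:86857338-86857397 (minus), chrX:134585624-134585683 (plus), chr9:66946056-66946115 (plus) and chr3:28805478-28805537 (plus), in the order of the lines.
Rpl13a: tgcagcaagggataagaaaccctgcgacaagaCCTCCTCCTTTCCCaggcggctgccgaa
Rpl7a: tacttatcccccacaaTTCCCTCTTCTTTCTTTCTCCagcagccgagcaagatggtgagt
Rps6: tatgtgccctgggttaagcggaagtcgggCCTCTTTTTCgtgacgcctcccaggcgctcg
Rpl36a: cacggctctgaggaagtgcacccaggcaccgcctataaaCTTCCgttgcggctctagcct
Rps27l: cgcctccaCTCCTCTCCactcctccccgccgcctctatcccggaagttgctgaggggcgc
Rpl22l1: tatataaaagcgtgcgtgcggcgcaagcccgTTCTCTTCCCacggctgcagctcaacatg

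The run was 14 bases long at Rpl13a and 21 bases at Rpl7a, both of them among the 8 members with the highest level. Also among those 8, it was 5 bases at Rps3, 6 bases at Rpl6, 7 bases at Rpsa and 3 bases at Rpl7l1. It was 10 bases at Rps6 and Rpl22l1, 9 bases at Rps27l and 5 bases at Rpl36a. The paralogs with the highest and the lowest ratio of summed peaks thus both had a run near the start. That of Rps27l began at base -22 relative to the annotated start and ended before it, outside the annotated transcript.

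Genes that the choice by symbol misses include Fau, which encodes a ribosomal protein joined to a ubiquitin-like protein, with a level of 11.3 and 10.8 RPKM in spleen and large intestine. Its log2 ratio of summed peaks was 0.01 (-0.65 to 0.67). Rack1, a scaffold protein of the small subunit, had 19.6 and 22.3 RPKM from a peak with its midpoint outside the gene.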

How the data were processed

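H3K36me3 ChIP-seq was performed on splenic and intestinal Treg cells, 1 library per tissue, with splenic input chromatin as control. Per the labels and the study's methods, single-end reads of 75 nt were aligned to mm10, peaks were called with MACS2 against input and merged across tissues with bedtools, and coverage tracks normalised to RPKM were averaged over each merged peak. The submitters' processing notes also name FastQC and Bowtie2, with no versions. The deposited values are thus mean RPKM coverage per peak, although the table is named for raw counts: multiplied by peak length, they came out whole in units of 1.69 (spleen) and 1.31 RPKM (large intestine), in 99.996% and 100% of the peaks low enough to tell. With bins of 20 bp, at whose edges coverage was whole, these units give the inferred depths. Whether reads were extended is not given in the sources used here, so reads per peak are approximate, and reads were treated as independent molecules.

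Chromosome names and lengths matched GRCm38 (0 of 21 with a peak past the end). The members, lists and named genes were chosen with earlier results of these data known. Named genes were the 8 members with the highest level, the 8 with the most extreme ratio in each direction, paralogs with a peak beside their canonical genes, members without a peak, and 19 members on chromosome X or of known function. Counting intervals were tested only on simulated data drawn with the same 200 bp per read. Such data cannot check that assumption. No p-value was computed. A few genes that these rules name are not reported here, and members among them are not drawn in the figures. The alternatives were scaling, pseudocount, filter, strongest peak, length weighting, 4 other assignments of peaks, peaks with an intronic midpoint, GC correction and canonical genes only. Python 3.11.15, numpy 2.4.6, pandas 2.3.3 and scipy 1.17.1 were used.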

Additional observations from a re-analysis of the deposited data

How the results depend on the processing

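No replicate could be left out and no paired analysis was possible because each tissue had 1 library. Of 67 values of the member counts and medians under the alternatives, 55 stayed within 1.5 times the count or inside the interval of the median reported. That interval is wide: the median ran from -0.11 to 0.01. Its own interval over genes was below 0 with the strongest peak only, length weighting (-0.15 to -0.03), the GC trend removed (-0.22 to -0.05) and bases weighted per gene length. These intervals cover the spread between genes only, so they cannot tell how another library per tissue would fall. The cause of the values that moved was not tested, beyond what each setting itself fixes. The 10 members with a counting interval off 0 became 5 with the deposited values unscaled, 24 with reads of 75 bases and 16 with bases weighted per gene length, the last over 80 members, both of these chosen after seeing the data. The 2 members past 1.5-fold became 1 with a pseudocount of 5, the strongest peak only, peaks overlapping by 1 bp or canonical genes only, 6 with no filter and 4 with the nearest transcript start. The 29 members higher in large intestine became 15 (of 58) with peaks weighted by length and 16 (of 64) with the GC trend removed. The median level of 13.3 RPKM over the 65 members, from midpoint peaks and the mean of both libraries, became 20.02 RPKM with the nearest transcript start.

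Among 452 such values of 37 single genes, 444 stayed inside the gene's counting interval, 5 left it (Rpl7l1, Rpl35a, Rps7 and Rps13, whose sign turned except at Rps7), and 3 turned in sign where the interval had been off 0, all with the nearest transcript start: Rpl12 (0.47), Rpsa (0.22) and Rpl37a (0.029). A limit of 200 RPKM left no member, the highest having 172.6 RPKM. Length weighting was not run for the level, which is weighted by length already. Depth sets a median counting SE of 0.19 for a member's log2 ratio.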
